A study of Mus musculus with 22 samples.

Results

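Activated helper T cells outside the follicular programme were compared with CD4+ T cells in mouse poly(A) RNA profiles. The comparison holds 4 of the 22 libraries of the series, chosen by their labels. A pair labelled activated non-Tfh, unmarked and MUT, carries the surface sort CD4+CD44+CXCR5-PD1-CD25-. The other pair is labelled CD4+, unmarked and MUT, with no further gate, and is the nearest thing here to total CD4 T cells. MUT marks 1 library of each pair, and the labels say neither what is mutated nor which strain, age, tissue or stimulus the T cells had. Each pair is therefore 1 unmarked and 1 MUT library, with no repeat of either. Other libraries of the same design, Tfh (follicular helper) and Tfr (follicular regulatory, sorted CD4+CD44+CXCR5+PD1+CD25+), each also unmarked and MUT, served to estimate the spread between libraries. Whether any library stands for an animal of its own is not stated, and a p-value here reflects how much the sequenced samples varied, possibly for technical reasons alone. Of 20674 protein-coding genes, 13064 had enough reads to be tested.

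Naive CD4 T cells circulate between blood and lymph nodes with the help of CCR7. After antigen contact they divide and acquire lineage factors such as T-bet (Th1), GATA3 (Th2) or BCL6 (Tfh). Those factors set which cytokines the cells can make and which chemokine receptors carry them into tissue or the B-cell follicle. Surface CD44 marks cells that have met antigen, CXCR5 and PD1 mark follicular cells, and CD25, a chain of the IL2 receptor, marks most regulatory T cells. Cells with the first and without the others are mainly effector and memory helper cells.

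Levels are TPM, a transcript abundance that the authors scaled by gene length and to a constant sum per library, so levels of different genes can be set side by side. Values of a pair are given with the unmarked library first and the MUT library second. Fold changes are log2 values of non-Tfh over CD4+ ± SE, n = 2 libraries per population. They come from an edgeR quasi-likelihood test on expected counts of the 8 libraries, with p adjusted over all genes tested and a threshold of 0.05. This test reports no SE of its own. The SE was worked back from it, as the absolute log2 fold change divided by the square root of the F statistic. The total expected count was 46.8 M and 87.6 M in the non-Tfh pair and 84.3 M and 48.2 M in the CD4+ pair. At a level of 9 to 11 TPM a gene had a median of 716 and 1216 reads in the non-Tfh pair and of 1271 and 759 in the CD4+ pair. Among the libraries used for the spread, Tfh MUT and Tfr stood apart: their summed level of 10 B-cell genes was 717 and 514 TPM, against 94.5 to 183 TPM in the other 6. Each count below is therefore given with all 8 libraries and again with 6, without those 2. With 6, Tfh and Tfr keep a single library each and add nothing to the spread. That spread then comes from the compared libraries alone, so the counts with 6 are not an independent check.

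The sort was read first in its own genes. Cd44 stood at 119.99 and 113.68 TPM in the non-Tfh pair, against 18.6 and 21.9 TPM in the CD4+ pair (2.40 ± 0.23, adjusted p = 0.00706). Cd4 was at a similar level in both, 864 and 814 TPM against 686 and 709 TPM. The genes of the 3 proteins that the sort excludes were not lower in the sorted cells. Cxcr5, the follicle-homing receptor gene, was at 75.9 and 57.9 TPM in the non-Tfh pair, against 6.29 and 9.08 TPM in the CD4+ pair (3.04 ± 0.31, adjusted p = 0.00866). In Tfh cells it stood at 268 and 452 TPM, so the non-Tfh level lay between them. Pdcd1, the gene of PD1, had 30.4 and 20.5 TPM in the non-Tfh pair, against 5.47 and 8.52 TPM in the CD4+ pair, with an adjusted p of 0.0636 that missed the threshold, and 558 and 444 TPM in Tfh cells. Il2ra, the gene of CD25, had 3.59 and 11.5 TPM in the non-Tfh pair, against 0.62 and 0.46 TPM in the CD4+ pair (adjusted p = 0.0518), and 177 and 212 TPM in Tfr cells. The summed level of 9 identity genes of CD4 T cells was 5287 and 5230 TPM in the non-Tfh pair and 4487 and 4723 TPM in the CD4+ pair.

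The CD4+ pair carried little RNA of effector or regulatory cells. T-bet, IFN-gamma and NK1.1 transcripts were near 0 there, Foxp3, the lineage factor gene of regulatory T cells, stood at 2.60 and 2.90 TPM, and genes of naive cells were high. The label states no sort for naive cells, and whether one was made is not stated in the sources used here. The pair is called CD4+ here, and values against it are not values against a known mix of naive and memory cells. In bulk samples, fewer cells of a type and less RNA per cell cannot be told apart.

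More genes were higher than lower in non-Tfh cells. Of the 13064 genes tested, 503 (3.85%) passed, 422 (3.23%) of them higher and 81 (0.62%) lower in non-Tfh cells. The change was at least 2-fold for 390 of the higher and 53 of the lower genes. All 503 had both non-Tfh libraries on the same side of both CD4+ libraries, but they were called on these same libraries. Uncalled genes could be separated too, such as Tgfb1, with 206 and 196 TPM in the non-Tfh pair, against 177 and 168 TPM in the CD4+ pair. The share of separated genes over all genes tested is not given here. Among the higher genes, 39 had a mean level under 1 TPM in CD4+ and of at least 10 TPM in non-Tfh cells, and 0 of the lower genes showed the mirror pattern. With 6 libraries, 3134 of 13394 genes (23.4%) passed, 1856 (13.9%) higher and 1278 (9.54%) lower. All 503 were among them with the same sign, but both fits take the fold change from the same 4 libraries, which nearly fixes the sign. The share of calls that were higher was 83.9% with 8 libraries and 59.2% with 6, 57.2% with only the 4 compared libraries and 64.6% with those 4 and no MUT term, and 72.5% with DESeq2. The count depends on single libraries: it was 31 without non-Tfh, 74 with non-Tfh MUT left out, 58 without CD4+, 111 without CD4+ MUT, 1155 without Tfh and 1203 without Tfh MUT.

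**Figure D1:**
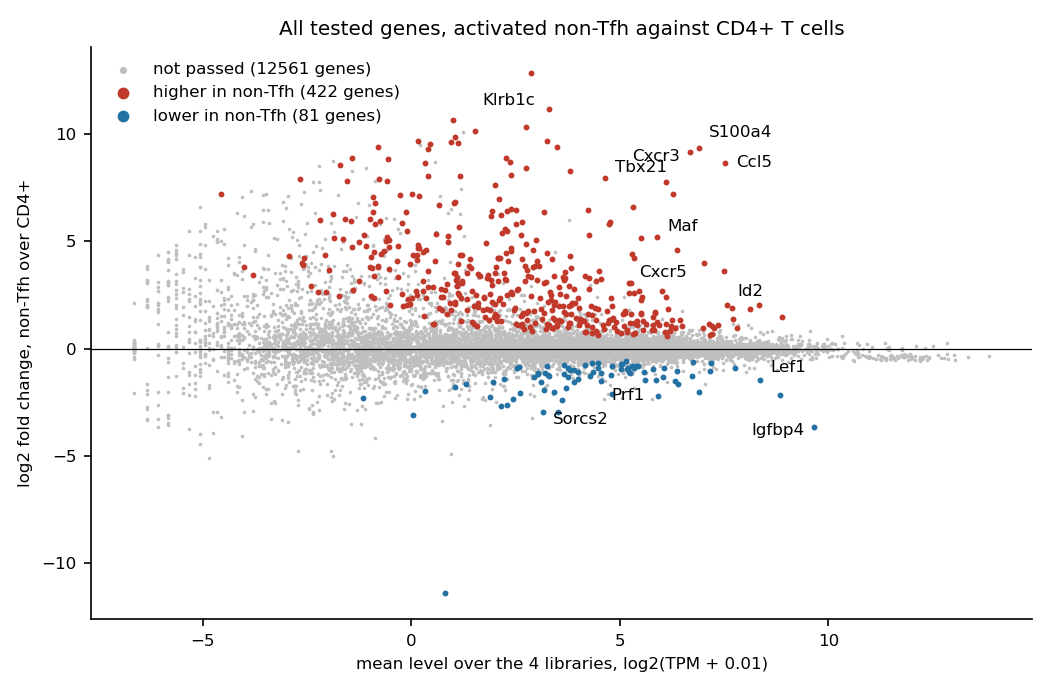
Every tested gene, with its mean level over the 4 libraries as log2(TPM + 0.01) on the x axis and its log2 fold change, non-Tfh over CD4+, on the y axis. Of the genes past the test, 422 lie above 0 (red) and 81 below it (blue). The lowest blue point is Amd1, an enzyme gene of polyamine synthesis listed at 0 in the non-Tfh pair.

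The blue point far below the others, named here because of its place in the plot, is Amd1. Its level was 0.00 and 0.00 TPM in the non-Tfh pair, against 3.01 and 4.03 TPM in the CD4+ pair. Mouse Amd1 has a near-identical gene copy between which reads can be split, so this value is uncertain and no fold is given.

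Lineage factors of more than 1 helper type were higher in non-Tfh cells. Of 21 effector transcription factor genes tested, of 23 listed, 9 rose and 0 fell, against 3.23% higher and 0.62% lower over all genes tested. Their median log2 fold change was 1.35, against a median of -0.01 over all genes tested. Tbx21, which encodes the Th1 factor T-bet, had 57.3 and 42.2 TPM in the non-Tfh pair, against 0.14 and 0.25 TPM in the CD4+ pair (7.96 ± 0.52, adjusted p = 0.00308). Maf, whose protein promotes IL21 and IL10, had 105 and 126 TPM, against 2.48 and 3.26 TPM in CD4+ cells (5.21 ± 0.19, adjusted p = 0.00106). The pairs were far apart for Tbx21 and Maf, and the members of each pair close together.

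Rora, a nuclear receptor gene of Th17 cells, stood at 18.6 and 20.7 TPM, against 1.74 and 1.69 TPM in CD4+ cells (3.39 ± 0.38, adjusted p = 0.0107). Id2, an inhibitor of E proteins, was the most abundant riser of the list by level, with 328 and 290.4 TPM, against 66.0 and 71.0 TPM in CD4+ cells (2.05 ± 0.30, adjusted p = 0.0249). The other risers were Runx2 (3.24 ± 0.46), Zeb2 (2.87 ± 0.24), a factor of terminal effector cells, Hopx (2.39 ± 0.42) and Ahr (2.47 ± 0.19), a ligand-activated factor (edgeR adjusted p = 0.0226, 0.00501, 0.0412 and 0.00473). Several factors of known roles missed the threshold while lying above CD4+ in both pairs. Gata3, the Th2 factor gene, had 83.8 and 69.5 TPM, against 49.9 and 42.8 TPM in CD4+ cells (adjusted p = 0.074). Eomes, which encodes a relative of T-bet found in cytotoxic cells, had 9.58 and 5.11 TPM, against 2.13 and 2.42 TPM in CD4+ cells (adjusted p = 0.211). Bcl6, the Tfh factor gene, was level, with 14.9 and 18.1 TPM in the non-Tfh pair, against 13.89 and 18.02 TPM in the CD4+ pair, while Tfh cells had 84.8 and 80.5 TPM. With 6 libraries 18 of 22 tested factors rose and 0 fell, against 13.9% and 9.54% over all genes. The 9 calls were 14 without Tfh or without Tfh MUT, 3 without non-Tfh, 3 with non-Tfh MUT left out, 4 without CD4+ and 4 without CD4+ MUT.

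Genes of cytokines and ligands were higher in part. Of 22 tested genes of 27 listed, 9 rose and 0 fell (median log2 fold change 2.18), against 3.23% and 0.62% over all genes. Ifng, the Th1 cytokine gene, had 20.2 and 24.6 TPM in the non-Tfh pair, against 0.00 and 0.07 TPM in the CD4+ pair (edgeR adjusted p = 0.0237). That was 1691 reads in the non-Tfh pair, against 2 in the CD4+ pair, a ratio of library-scaled reads of 834 with an exact 95% interval of 230 to 6890 that covers counting error only. Ccl5, a chemokine gene of effector cells, was the most abundant ligand of the list that rose, with 409 and 331 TPM, against 0.65 and 1.12 TPM in CD4+ cells (8.66 ± 0.82, adjusted p = 0.00706).

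Il2, the growth factor gene, had 6.92 and 4.61 TPM in the non-Tfh pair and no read in either CD4+ library, which makes it at least 52.6-fold higher against a floor of 3 reads per library (edgeR adjusted p = 0.0122). Tnfsf14, which encodes LIGHT, a costimulatory ligand, had 60.2 and 46.7 TPM, against 0.71 and 0.93 TPM in CD4+ cells (5.91 ± 0.25, adjusted p = 0.00162). Tnfsf11, the RANKL gene, had 30.5 and 15.9 TPM, against 3.08 and 1.57 TPM in CD4+ cells (3.18 ± 0.29, adjusted p = 0.00651). Both ligands were higher in each non-Tfh library than in either CD4+ library. Fasl, the death ligand gene, rose by a smaller factor (1.69 ± 0.29, adjusted p = 0.0377).

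Other members of the list were low or variable. Il21 (1.26 and 1.01 TPM, against 0.01 and 0.11 TPM in CD4+ cells), Ccl3 (2.56 ± 0.47) and Ccl4 (2.69 ± 0.48) rose (edgeR adjusted p = 0.0285, 0.0437 and 0.0424). Ccl3 and Ccl4 are neighbours of like sequence, and their reads may be divided between them. Their levels stayed under 3 TPM in the non-Tfh pair, and Tfh cells had 70.5 and 67.0 TPM of Il21. Xcl1, the chemokine gene of lymphotactin, had 9.90 and 45.0 TPM, against 0.27 and 0.37 TPM in CD4+ cells, and did not pass (adjusted p = 0.149). Il4, the Th2 cytokine gene, had 2.22 and 5.42 TPM, against 0.00 and 0.07 TPM in CD4+ cells (adjusted p = 0.112). The Th17 cytokine gene Il17a was at 0.12 and 0.13 TPM, against 0.00 and 0.07 TPM in CD4+ cells, and had too few reads to be tested. With 6 libraries 14 of 22 rose and 0 fell, against 13.9% and 9.54% over all genes. The 9 calls were 12 without Tfh or without Tfh MUT, 1 without non-Tfh, 2 with non-Tfh MUT left out, 2 without CD4+ and 5 without CD4+ MUT.

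**Figure D2:**
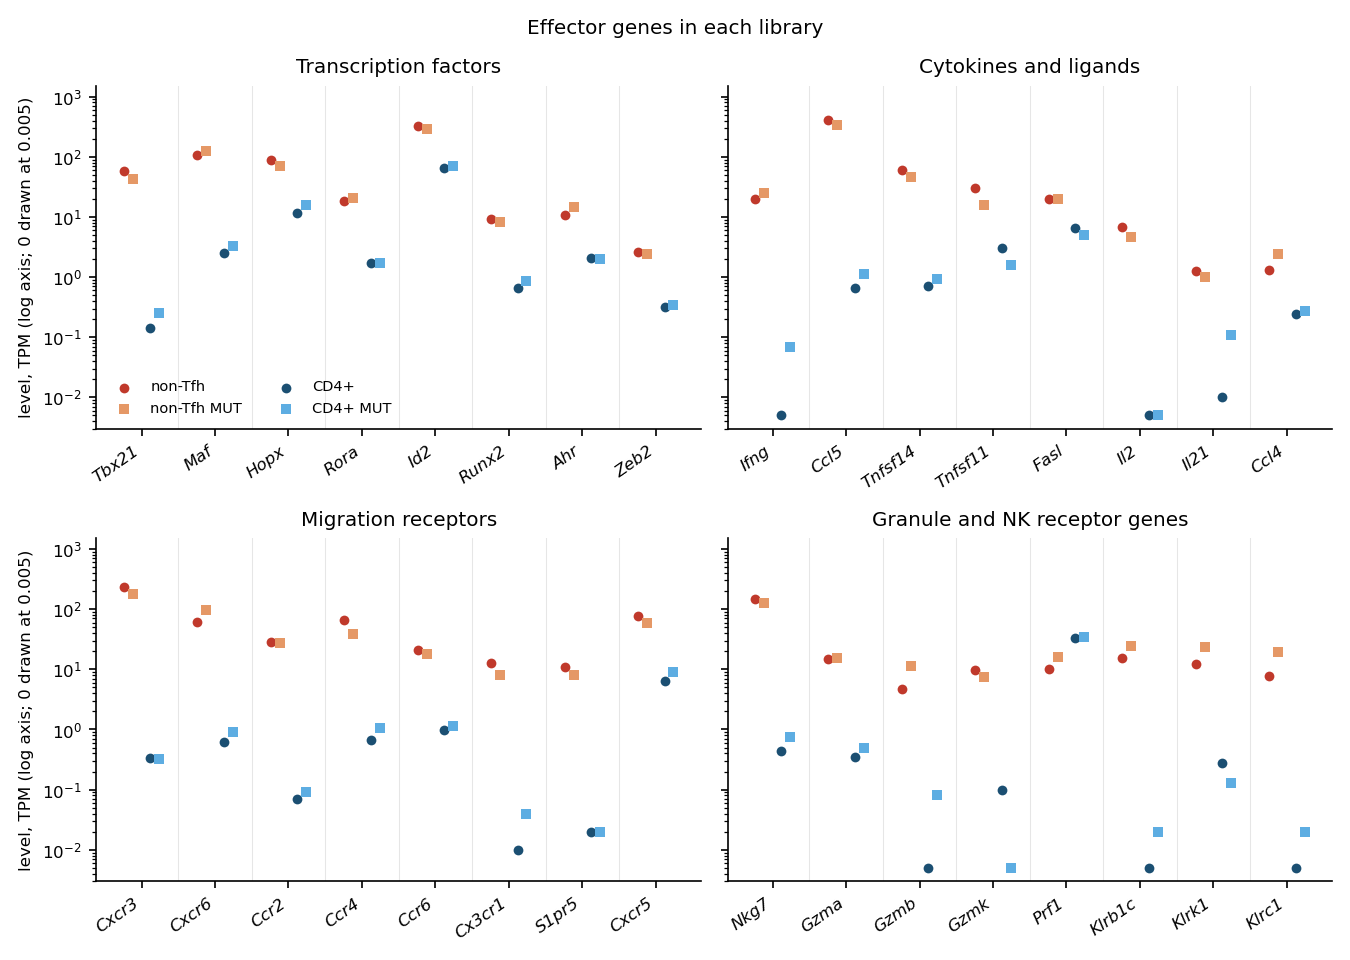
Level in TPM (log axis, 0 drawn at 0.005) of 32 genes in the 2 non-Tfh libraries (red, orange) and the 2 CD4+ libraries (dark and light blue), with 1 point per library. The non-Tfh points lie above the CD4+ points in all genes but Prf1, where they lie below.

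Of 23 cytokine receptor genes, 4 rose and 0 fell (median log2 fold change 0.50), against 3.23% and 0.62% over all genes. Il18rap, the accessory chain of the IL18 receptor, had 43.2 and 31.5 TPM in the non-Tfh pair, against 0.37 and 0.41 TPM in the CD4+ pair (6.46 ± 0.70, adjusted p = 0.01). Its partner chain gene Il18r1 had 136 and 149 TPM, against 40.3 and 36.9 TPM in CD4+ cells, and missed the threshold (adjusted p = 0.258). Il2rb, the beta chain of the IL2 and IL15 receptors, had 293 and 200 TPM, against 14.5 and 14.0 TPM in CD4+ cells (3.97 ± 0.32, adjusted p = 0.00486). Il12rb2, the signalling chain of the IL12 receptor, had 4.86 and 7.50 TPM, against 0.86 and 0.78 TPM in CD4+ cells (3.29 ± 0.49, adjusted p = 0.0261). Il1rl1, which encodes the IL33 receptor ST2, had 2.80 and 1.71 TPM, against 0.02 and 0.01 TPM in CD4+ cells (7.09 ± 0.33, adjusted p = 0.00162). Il23r, the receptor chain for IL23, was also higher in both pairs without passing, at 1.17 and 1.27 TPM, against 0.06 and 0.00 TPM in CD4+ cells (adjusted p = 0.0515). Il4ra, the IL4 receptor chain gene, lay the other way, at 74.8 and 86.5 TPM, against 152 and 164 TPM in CD4+ cells (adjusted p = 0.0743). Il7r, the receptor gene of naive and memory survival, was at 389.57 and 391.63 TPM, against 368 and 275 TPM in CD4+ cells. With 6 libraries 12 of 23 rose and 4 fell, against 13.9% and 9.54% over all genes. The 4 calls were 11 higher and 2 lower without Tfh or without Tfh MUT, 1 without non-Tfh, 2 with non-Tfh MUT left out, 2 without CD4+ and 3 without CD4+ MUT.

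Receptors that guide cells into tissue were the list with the largest median, 3.55 on the log2 scale. Of 22 genes of chemokine receptors and trafficking, 11 rose and 1 fell, against 3.23% and 0.62% over all genes. Cxcr3, the receptor gene for the interferon-induced chemokines, had 234 and 179 TPM in the non-Tfh pair, against 0.34 and 0.32 TPM in the CD4+ pair (9.15 ± 0.59, adjusted p = 0.00307). Cxcr6, the CXCL16 receptor gene, had 61.1 and 97.9 TPM, against 0.62 and 0.92 TPM in CD4+ cells (6.59 ± 0.53, adjusted p = 0.00486). Ccr2, the CCL2 receptor gene, had 28.0 and 27.6 TPM, against 0.07 and 0.09 TPM in CD4+ cells (8.30 ± 0.39, adjusted p = 0.00162). These 3 receptors were nearly absent from the CD4+ pair.

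Ccr4, a receptor gene of skin-homing and Th2 cells, had 65.6 and 39.3 TPM, against 0.66 and 1.04 TPM in CD4+ cells (5.83 ± 0.53, adjusted p = 0.00628). Ccr6, a receptor gene of Th17 cells, had 21.1 and 18.1 TPM, against 0.98 and 1.13 TPM in CD4+ cells (4.18 ± 0.24, adjusted p = 0.00193). Cx3cr1, the fractalkine receptor gene of cytotoxic cells, rose too (8.68 ± 0.96, edgeR adjusted p = 0.0103). S1pr5, a sphingosine phosphate receptor of NK and effector cells, had 11.1 and 8.08 TPM, against 0.02 and 0.02 TPM in CD4+ cells (1416 reads against 3, edgeR adjusted p = 0.00381). Ccr10, a receptor of skin and mucosal homing, differed within the pair, with 12.6 TPM in non-Tfh and 2.37 TPM in non-Tfh MUT, against 0.12 and 0.05 TPM in CD4+ cells (6.18 ± 1.10, adjusted p = 0.0417).

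Genes for the glycans that bind selectins rose as well: Fut7 (2.91 ± 0.55) and Gcnt1 (4.96 ± 0.71), at 5.54 and 2.13 TPM and at 3.84 and 3.31 TPM in the non-Tfh pair (edgeR adjusted p = 0.0485 and 0.0223). Ccr7, the lymph node chemokine receptor, had 337 and 277 TPM, against 632 and 510 TPM in CD4+ cells, and missed the threshold (adjusted p = 0.0604). Of the 9 chemokine receptor genes among the named genes that rose, Cxcr5 included, 6 lie on chromosome 9. With 6 libraries 15 of 22 rose and 3 fell, against 13.9% and 9.54% over all genes. The 11 higher and 1 lower calls were 12 and 2 without Tfh, 13 and 2 without Tfh MUT, 4 and 0 without non-Tfh, 7 and 0 with non-Tfh MUT left out, 5 and 0 without CD4+, and 8 and 0 without CD4+ MUT.

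Adhesion genes were higher in part: of 19 tested, 5 rose and 1 fell, against 3.23% and 0.62% over all genes. Their median log2 fold change was 0.62. Itgb1, the common beta chain of the VLA integrins, had 471 and 211 TPM in the non-Tfh pair, against 25.3 and 22.1 TPM in the CD4+ pair (3.60 ± 0.30, adjusted p = 0.00534). Itga4, an alpha chain that pairs with it, had 302 and 321 TPM, against 123 and 100 TPM in CD4+ cells (1.37 ± 0.21, adjusted p = 0.027). The genes of both VLA4 chains were thus higher. The collagen-binding alpha chains rose from low levels: Itga2 (3.51 ± 0.40, adjusted p = 0.0111), and Itga1, at 0.84 TPM in non-Tfh and 4.63 TPM in non-Tfh MUT, against 0.00 and 0.01 TPM in CD4+ cells (edgeR adjusted p = 0.0436). Itgal, the LFA1 alpha chain gene, had 482 and 479 TPM, against 249 and 271 TPM in CD4+ cells (adjusted p = 0.0542). Alcam, the CD6 ligand gene, rose (1.13 ± 0.17, adjusted p = 0.025), and Itgb3, the beta chain of the vitronectin receptor, fell (-0.97 ± 0.18, adjusted p = 0.0451). With 6 libraries 13 of 19 rose and 3 fell, against 13.9% and 9.54% over all genes. The calls were 10 higher and 1 lower without Tfh or without Tfh MUT, 0 without non-Tfh, and 1 higher without any of the other 3.

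S100, annexin and galectin genes, which code for calcium- and glycan-binding proteins common in effector and memory T cells, were higher in part. Of 20 genes in the list, 10 rose and 0 fell (median log2 fold change 1.26), against 3.23% and 0.62% over all genes. S100a4 had 307 and 170 TPM in the non-Tfh pair, against 0.48 and 0.09 TPM in the CD4+ pair (9.36 ± 0.80, adjusted p = 0.0056). S100a6 had 190 and 118 TPM, against 0.98 and 0.93 TPM in CD4+ cells (7.20 ± 0.51, adjusted p = 0.00381). Other members were already abundant in CD4+ cells. S100a10 had 895 and 523 TPM, against 268 and 200 TPM in CD4+ cells (1.46 ± 0.27, adjusted p = 0.0451), and S100a11 had 618 and 438 TPM, against 119 and 119 TPM in CD4+ cells (2.03 ± 0.20, adjusted p = 0.00866). The 4 S100 genes lie within chr3:90603770-93564645 (GRCm38.p6, from the first start to the last end). Lgals1 rose from a high level as well, with 543 and 345 TPM, against 109 and 120 TPM in CD4+ cells (1.82 ± 0.31, adjusted p = 0.0362).

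The annexin genes Anxa1 (5.83 ± 0.63) and Anxa2 (4.24 ± 0.50) and the scaffold and motor genes Ahnak (4.57 ± 0.28) and Myo1f (5.14 ± 0.29) rose (edgeR adjusted p = 0.00971, 0.0123, 0.00289 and 0.00193). Lgals3 had 20.4 TPM in non-Tfh and 6.57 TPM in non-Tfh MUT, against 0.05 and 0.00 TPM in CD4+ cells, 972 reads against 3 (edgeR adjusted p = 0.00628). S100a4, S100a6, S100a10, S100a11, Anxa1 and Anxa2 all had the higher level in the unmarked library of the non-Tfh pair. With 6 libraries 16 of 20 rose and 1 fell, against 13.9% and 9.54% over all genes. The 10 calls were 12 without Tfh or without Tfh MUT, 3 without non-Tfh, 7 with non-Tfh MUT left out, 5 without CD4+ and 5 without CD4+ MUT.

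Genes of cytotoxic granules and NK receptors split. Of 20, 11 rose and 1 fell (median log2 fold change 2.07), against 3.23% and 0.62% over all genes. The gene that fell was that of the pore-forming protein perforin. Prf1 had 10.06 and 16.02 TPM in the non-Tfh pair, against 32.9 and 34.3 TPM in the CD4+ pair (-1.50 ± 0.28, adjusted p = 0.0462). Of 4 granzyme genes, whose proteases need such pores to enter a target cell, Gzma, Gzmb and Gzmk rose. Gzma had 15.1 and 15.7 TPM, against 0.35 and 0.50 TPM in CD4+ cells (5.06 ± 0.87, adjusted p = 0.0373). Gzmb had 4.72 and 11.3 TPM, against 0.00 and 0.08 TPM in CD4+ cells (827 reads against 3, edgeR adjusted p = 0.0479), and Gzmk had 9.65 and 7.56 TPM, against 0.10 and 0.00 TPM in CD4+ cells (391 reads against 3, edgeR adjusted p = 0.0046). Gzmm, the other granzyme gene of the list, had 3.63 and 3.30 TPM, against 1.96 and 2.13 TPM in CD4+ cells, and did not pass (adjusted p = 0.59).

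Nkg7, a granule membrane protein gene, had 148 and 128 TPM, against 0.44 and 0.76 TPM in CD4+ cells (7.78 ± 1.01, adjusted p = 0.0163). Klrb1c, the gene of the NK1.1 antigen, had 15.3 and 24.5 TPM, against 0.00 and 0.02 TPM in CD4+ cells, 3464 reads against 1 (edgeR adjusted p = 0.00446). Klrk1, the gene of the activating receptor NKG2D, had 12.2 and 23.7 TPM, against 0.28 and 0.13 TPM in CD4+ cells (6.36 ± 0.60, adjusted p = 0.00706). Klrc1, the gene of the inhibitory receptor NKG2A, had 7.62 and 19.5 TPM, against 0.00 and 0.02 TPM in CD4+ cells (edgeR adjusted p = 0.0227). For these 3 receptor genes the MUT library of the non-Tfh pair was the higher one. Klrd1, the gene of CD94, the partner chain of NKG2A, was already expressed in CD4+ cells, with 24.6 and 28.03 TPM in the non-Tfh pair, against 15.62 and 6.38 TPM in the CD4+ pair, and did not pass (adjusted p = 0.283). Klre1, at 4.18 and 4.13 TPM with no read in either CD4+ library, was at least 36.5-fold higher (edgeR adjusted p = 0.0485), and Klrg1 (4.20 ± 0.37, adjusted p = 0.00603), Cd160 (2.77 ± 0.45, adjusted p = 0.0314) and Serpinb6b (1.36 ± 0.20, adjusted p = 0.0251) rose. All 5 Klr genes that rose lie within chr6:122270596-129682852 (GRCm38.p6), and members of this family have similar sequences, so reads could be divided among them. With 6 libraries 14 of 20 rose and 2 fell, against 13.9% and 9.54% over all genes. The calls were 13 higher and 1 lower without Tfh or without Tfh MUT, and 1 higher without non-Tfh, 4 with non-Tfh MUT left out, 3 without CD4+ and 3 without CD4+ MUT.

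The promoters of the genes that rose were read for 4 binding motifs of T-cell transcription factors, each on both strands. The motifs were the AP-1 site TGANTCA, the T-box site AGGTGTG, the Runx site TGTGGTT and the Klf site CCACACCC. RefSeq windows of 250 bases before to 50 bases after the start (GRCm38.p6) were at hand for 59 of the 79 named genes that rose, 75 windows in all, and compared with 13072 windows of all tested genes. The Runx site was in 12 of the 75 windows (16%), against 3.88% of all windows. It was in the windows of Cxcr3, Gzma, Gzmb, Klrk1, Klre1, Il18rap, Cd160, Tigit, Tnfsf14, Runx2 and S100a6. The AP-1 site was in 8 windows (10.7%), against 5.14% of all windows, the T-box site in 4 (5.33%), against 4.77%, and the Klf site in 2 (2.67%), against 3.82%. Sites of different motifs overlapped in 1 named window and in 36 of all windows. A match is a run of letters and not a bound site, and these shares were given no test.

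The sequences below show such matches in capitals, in the 250 bases before the start, 5′ to 3′ on the strand of the gene. Ccr4, Tnfsf14, Zeb2 and Il21 are the lineage, ligand and migration genes with the largest change that hold an AP-1 or T-box site, and Klrk1 and Gzmb, chosen after their values were seen, show a Runx site.
Ccr4: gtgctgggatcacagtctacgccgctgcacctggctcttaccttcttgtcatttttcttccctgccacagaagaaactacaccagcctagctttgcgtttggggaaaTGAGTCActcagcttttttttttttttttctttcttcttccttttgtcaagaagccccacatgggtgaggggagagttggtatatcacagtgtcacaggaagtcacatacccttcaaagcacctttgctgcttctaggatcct
Tnfsf14: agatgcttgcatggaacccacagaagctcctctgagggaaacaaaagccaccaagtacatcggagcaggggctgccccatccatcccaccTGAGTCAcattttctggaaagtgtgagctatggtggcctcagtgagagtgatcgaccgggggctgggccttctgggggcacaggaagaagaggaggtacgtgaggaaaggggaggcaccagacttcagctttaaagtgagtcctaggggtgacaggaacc
Zeb2: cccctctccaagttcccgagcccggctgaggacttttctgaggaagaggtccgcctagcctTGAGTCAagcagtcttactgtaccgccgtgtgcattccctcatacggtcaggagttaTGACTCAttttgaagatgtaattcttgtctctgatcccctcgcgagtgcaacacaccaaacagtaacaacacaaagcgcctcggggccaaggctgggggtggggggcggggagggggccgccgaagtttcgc
Il21: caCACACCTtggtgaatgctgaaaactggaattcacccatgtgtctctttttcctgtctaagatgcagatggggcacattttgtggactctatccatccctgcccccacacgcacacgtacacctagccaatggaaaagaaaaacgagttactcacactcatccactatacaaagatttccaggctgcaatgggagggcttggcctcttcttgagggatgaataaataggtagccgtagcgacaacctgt
Klrk1: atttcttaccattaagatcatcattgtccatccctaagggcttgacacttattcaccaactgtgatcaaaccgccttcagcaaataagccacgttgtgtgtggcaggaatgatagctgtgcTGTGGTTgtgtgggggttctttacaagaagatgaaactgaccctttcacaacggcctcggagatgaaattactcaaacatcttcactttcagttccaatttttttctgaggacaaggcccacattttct
Gzmb: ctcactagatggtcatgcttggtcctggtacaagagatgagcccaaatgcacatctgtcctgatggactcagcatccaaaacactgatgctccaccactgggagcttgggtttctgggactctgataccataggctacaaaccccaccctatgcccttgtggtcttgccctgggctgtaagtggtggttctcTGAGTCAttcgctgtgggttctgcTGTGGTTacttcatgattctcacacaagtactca
In Ccr4 (chr9:114496545-114496794, minus strand) the AP-1 site begins 143 bases before the start, and in Tnfsf14 (chr17:57194182-57194431, minus strand) 160 bases before it. Zeb2 (chr2:45110278-45110527, minus strand, 1 of its 4 windows) holds 2 AP-1 sites. In Il21 (chr3:37232637-37232886, minus strand) the T-box site begins 248 bases before the start and is read on the other strand. In Klrk1 (chr6:129623865-129624114, minus strand) the Runx site begins 129 bases before the start. In Gzmb (chr14:56262335-56262584, minus strand) the AP-1 and Runx sites begin 58 and 34 bases before it.

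Some costimulatory and inhibitory receptor genes were higher. Of 24 genes 8 rose and 0 fell (median log2 fold change 0.78), against 3.23% and 0.62% over all genes. Ctla4, an inhibitory receptor gene, had 44.3 and 40.7 TPM in the non-Tfh pair, against 4.94 and 3.23 TPM in the CD4+ pair (3.26 ± 0.29, adjusted p = 0.00628). Tigit, another inhibitory receptor gene, had 15.21 and 13.04 TPM, against 0.69 and 1.22 TPM in CD4+ cells (3.82 ± 0.35, adjusted p = 0.00628). Icos, a costimulatory receptor gene, had 98.1 and 81.8 TPM, against 27.1 and 22.7 TPM in CD4+ cells (1.73 ± 0.18, adjusted p = 0.00907). These levels lay between those of CD4+ and of Tfh cells, where Tigit had 394 and 292 TPM and Icos 241.9 and 170.1 TPM. The pair of ectoenzymes that make adenosine rose, Entpd1 (2.53 ± 0.18, adjusted p = 0.00362) and Nt5e (1.68 ± 0.22, adjusted p = 0.0158), as did Lag3 (2.72 ± 0.49), Cd38 (3.47 ± 0.49) and Cd28 (0.67 ± 0.12; edgeR adjusted p = 0.042, 0.0218 and 0.0389). With 6 libraries 16 of 24 rose and 1 fell, against 13.9% and 9.54% over all genes. The 8 calls were 14 without Tfh or without Tfh MUT, 0 without non-Tfh, 2 with non-Tfh MUT left out, 3 without CD4+ and 4 without CD4+ MUT.

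Genes of the follicular and regulatory programmes rose in part, to levels below those of the cells they are named for. Of 16 Tfh genes 7 rose and 0 fell (median log2 fold change 2.40), and of 15 regulatory genes 5 rose and 0 fell (2.14). Shares over all genes tested were 3.23% higher and 0.62% lower. The lists share members with those above, and the sort excluded CXCR5+ and PD1+ cells. Tox2, a factor of Tfh cells, had 15.4 and 8.64 TPM in the non-Tfh pair, against 0.15 and 0.46 TPM in the CD4+ pair (5.28 ± 0.55, adjusted p = 0.00907), and 114 and 121 TPM in Tfh cells. Slamf6, a receptor gene of T- and B-cell contacts, had 349 and 260 TPM, against 163 and 132 TPM in CD4+ cells (0.96 ± 0.15, adjusted p = 0.0285). Ascl2, an early Tfh factor, stayed at 0.25 and 0.09 TPM, against 0.00 and 0.00 TPM in CD4+ cells and 14.98 and 18.39 TPM in Tfh cells.

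Ikzf2, which encodes Helios, a factor of regulatory T cells, had 11.8 and 13.8 TPM in the non-Tfh pair, against 0.79 and 1.53 TPM in the CD4+ pair (3.36 ± 0.38, adjusted p = 0.0111), and 252 and 249.9 TPM in Tfr cells. Nrp1, a surface receptor gene of regulatory and Tfh cells, had 32.6 and 16.6 TPM, against 3.06 and 2.60 TPM in CD4+ cells (2.93 ± 0.24, adjusted p = 0.00499). Foxp3 had 9.19 and 17.8 TPM, against 2.60 and 2.90 TPM in CD4+ cells, and did not pass (adjusted p = 0.0768). In Tfr cells it stood at 433 and 579 TPM. Both Foxp3 and Il2ra were higher in the MUT library of the non-Tfh pair. With 6 libraries 13 of 16 Tfh genes rose and 2 fell, and 11 of 15 regulatory genes rose and 2 fell. Shares over all genes were then 13.9% higher and 9.54% lower. Without non-Tfh 1 gene of each list was called, with non-Tfh MUT left out 2 of each, without CD4+ 3 Tfh and 4 regulatory genes, and without CD4+ MUT 5 of each. Without Tfh or without Tfh MUT 12 Tfh genes were higher, and 9 regulatory genes higher and 2 lower.

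Genes of naive cells made up part of the falls. Of 18 naive T-cell genes 5 fell and 0 rose (median log2 fold change -0.94), against 0.62% lower and 3.23% higher over all genes. Igfbp4, an IGF-binding protein gene, was the gene of the largest fall by the naming rule, with 101 and 161 TPM in the non-Tfh pair, against 1206 and 1762 TPM in the CD4+ pair (-3.64 ± 0.44, adjusted p = 0.0137). Lef1, a factor of early and naive T cells, had 203 and 180 TPM, against 487 and 446 TPM in CD4+ cells (-1.47 ± 0.16, adjusted p = 0.0103). Treml2 (-1.50 ± 0.23) and Sox4 (-2.40 ± 0.30) fell too (edgeR adjusted p = 0.0275 for Treml2 and 0.0143 for Sox4). None of these 4 was near 0 in non-Tfh cells.

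Other well known naive genes were lower without passing or were level. Bach2, a repressor of effector genes, had 19.1 and 23.9 TPM, against 53.4 and 44.0 TPM in CD4+ cells (adjusted p = 0.0678). Satb1, a chromatin organiser, had 149.6 and 212 TPM, against 353 and 332 TPM in CD4+ cells (adjusted p = 0.078). Tcf7, the gene of TCF1, a factor of naive and memory cells, had 1533 and 1551 TPM, against 1682 and 1624 TPM in CD4+ cells. Klf2 and S1pr1, which serve exit from lymph nodes, stood at 875 and 638 TPM and at 377 and 349 TPM in the non-Tfh pair, against 805 and 625 TPM and 422 and 362 TPM in the CD4+ pair. None of Tcf7, Klf2 and S1pr1 passed (edgeR adjusted p = 0.539, 0.972 and 0.574). With 6 libraries 14 of the 18 naive genes fell and 0 rose, against 9.54% lower and 13.9% higher over all genes. The 5 calls were 12 without Tfh or without Tfh MUT and 0 without any 1 of the 4 compared libraries.

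Outside the lists, the naming rule added genes with other roles. Sorcs2, a sorting receptor gene, had 1.59 and 2.99 TPM in the non-Tfh pair, against 13.07 and 17.99 TPM in the CD4+ pair (-2.94 ± 0.20, adjusted p = 0.00351). Ampd1, an AMP deaminase gene, had 2.15 and 3.71 TPM, against 17.5 and 22.7 TPM in CD4+ cells (-2.93 ± 0.30, adjusted p = 0.00882). Atp1b1, a sodium pump subunit gene, had 24.04 and 22.32 TPM, against 112 and 85.8 TPM in CD4+ cells (-2.21 ± 0.22, adjusted p = 0.00762). The naming rule takes only genes whose groups do not overlap, so the separation of these 3 genes was fixed by their choice. The rule also gave Vipr1 (-1.66 ± 0.18), a receptor gene of vasoactive intestinal peptide, and Adcy6 (-2.11 ± 0.22), an adenylyl cyclase gene (edgeR adjusted p = 0.00957 for each). It further named Gtf2ird1, Ndrg1, Rgmb, Col11a2 and Myo10, with log2 fold changes of -2.01 to -1.54 and adjusted p of 0.023 to 0.0374.

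Ly6c1 and Ly6c2, neighbouring genes of the Ly6C antigen, moved in opposite directions. Ly6c1 had 41.4 and 62.0 TPM in the non-Tfh pair, against 188 and 189 TPM in the CD4+ pair (-2.04 ± 0.29, adjusted p = 0.0223). Ly6c2, which was chosen after its values were seen, had 88.6 and 61.6 TPM, against 3.26 and 3.07 TPM in CD4+ cells (4.42 on the log2 scale). The pair have near-identical sequences and could exchange reads, so both values are uncertain.

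**Figure D3:**
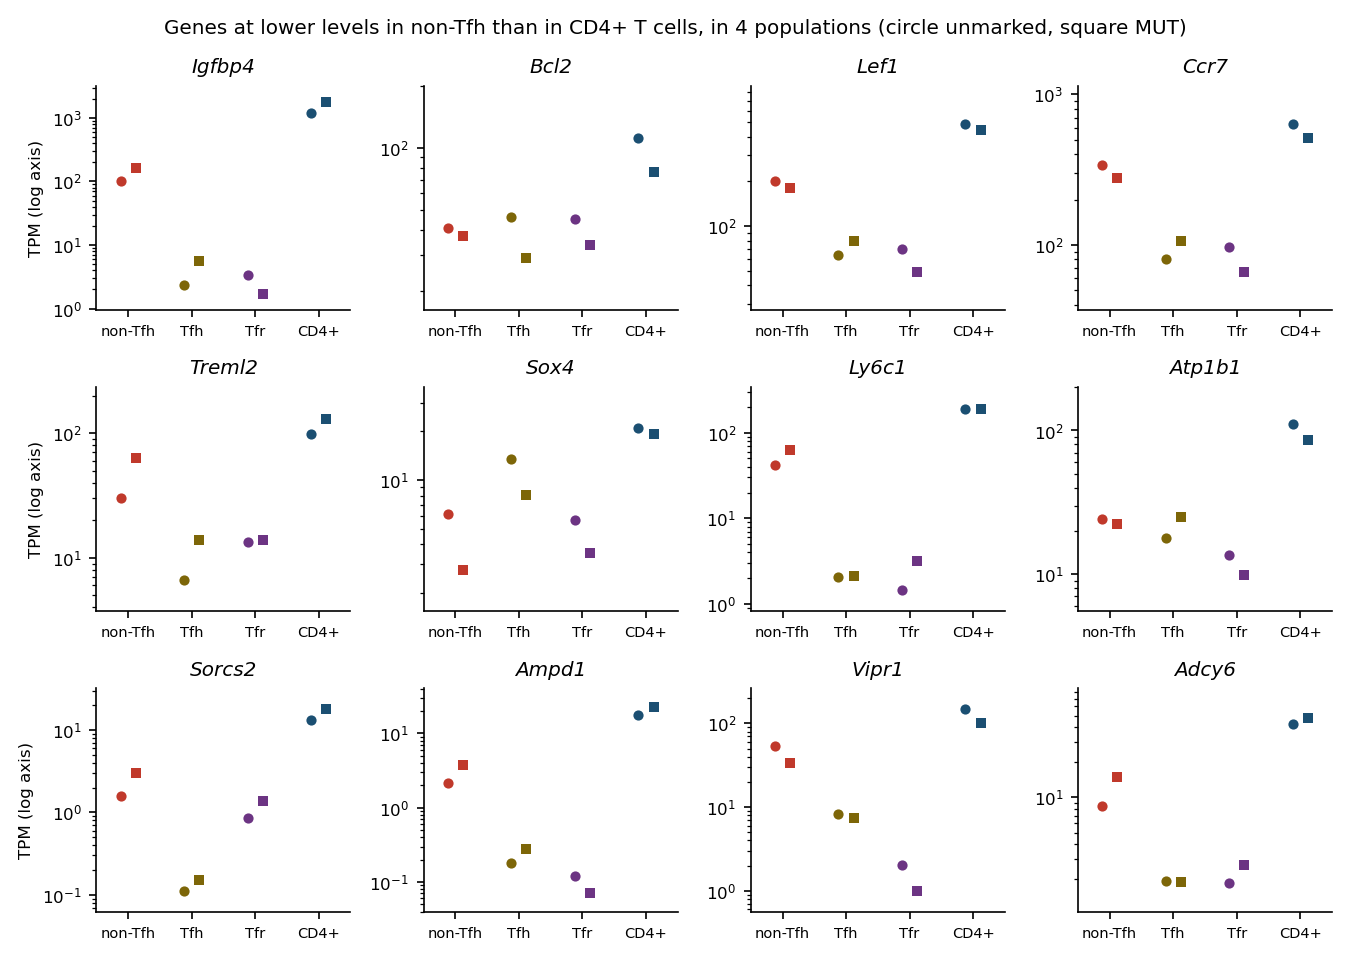
Level in TPM (log axis, scaled per panel) of 12 genes in non-Tfh, Tfh, Tfr and CD4+ cells, with a circle for the unmarked and a square for the MUT library. Non-Tfh points lie below CD4+ points in all 12 panels, and for Igfbp4, Lef1 and Ly6c1 above the Tfh and Tfr points.

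Among the genes with the largest gains were some of less known function in T cells. Cpne7, a copine gene of calcium-dependent membrane binding, had 19.0 and 10.3 TPM in the non-Tfh pair and no read in either CD4+ library, at least 350-fold higher (edgeR adjusted p = 0.00543). Ttc39c, a tetratricopeptide repeat gene, had 23.2 and 15.1 TPM, against 0.03 and 0.00 TPM in CD4+ cells, 2656 reads against 3 (edgeR adjusted p = 0.00389). Mmp9, a matrix-degrading protease gene, had 8.94 and 11.9 TPM, against 0.05 and 0.01 TPM in CD4+ cells (8.10 ± 0.51, adjusted p = 0.00305). These 3 genes also came from the naming rule, which requires that the pairs do not overlap.

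Several housekeeping and activation lists held no call. None of 25 T-cell receptor signalling genes, 24 proliferation genes, 15 ribosome biogenesis genes, 19 early response and heat shock genes or 15 type I interferon genes passed the test with 8 libraries. Their median log2 fold changes were -0.01, 0.53, -0.27, 0.12 and 0.10. Over all genes tested 3.85% passed, and at that share lists of this size would hold few calls. With 6 libraries the counts were 3 higher and 5 lower for receptor signalling, 15 and 1 for proliferation, 0 and 7 for ribosome biogenesis, 8 and 2 for early response and heat shock, and 3 and 2 for interferon genes. The shares over all genes with 6 libraries were 13.9% higher and 9.54% lower. Mki67, a gene of dividing cells, had 22.3 and 15.3 TPM in the non-Tfh pair, against 6.23 and 7.56 TPM in the CD4+ pair (adjusted p = 0.0805), and 46.0 TPM in the unmarked Tfh library. Fosb, an early response gene, was higher in the MUT library of each pair and was not called. It had 6.72 TPM in non-Tfh and 60.1 TPM in non-Tfh MUT, against 2.38 TPM in CD4+ and 15.8 TPM in CD4+ MUT (adjusted p = 0.769).

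Of 20 glycolysis genes only Pdk1, a kinase gene that limits pyruvate oxidation, was called, and it fell, with 80.8 and 119.95 TPM, against 189 and 183 TPM in CD4+ cells (-1.03 ± 0.18, adjusted p = 0.0428). A single call among 20 genes is near the share of all genes tested that passed, 3.85%. The glycolysis list had a median of 0.19 and, with 6 libraries, 4 higher and 2 lower members. Over all genes with 6 libraries, 13.9% were higher and 9.54% lower, shares that apply to the survival list below as well. Of 16 survival genes, Bcl2, an inhibitor of cell death, fell, with 40.6 and 37.1 TPM, against 111 and 76.0 TPM in CD4+ cells (-1.34 ± 0.14, adjusted p = 0.00957). Bcl2a1b, a relative of Bcl2 in a family of near-identical copies that can share reads, rose (1.32 ± 0.12, adjusted p = 0.00628), and so did Pmaip1, a death-promoting gene (1.90 ± 0.35, adjusted p = 0.0462). The survival list had 5 higher and 4 lower members with 6 libraries, and none of its members or of the glycolysis genes was called without any 1 of the 4 compared libraries.

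**Figure D4:**
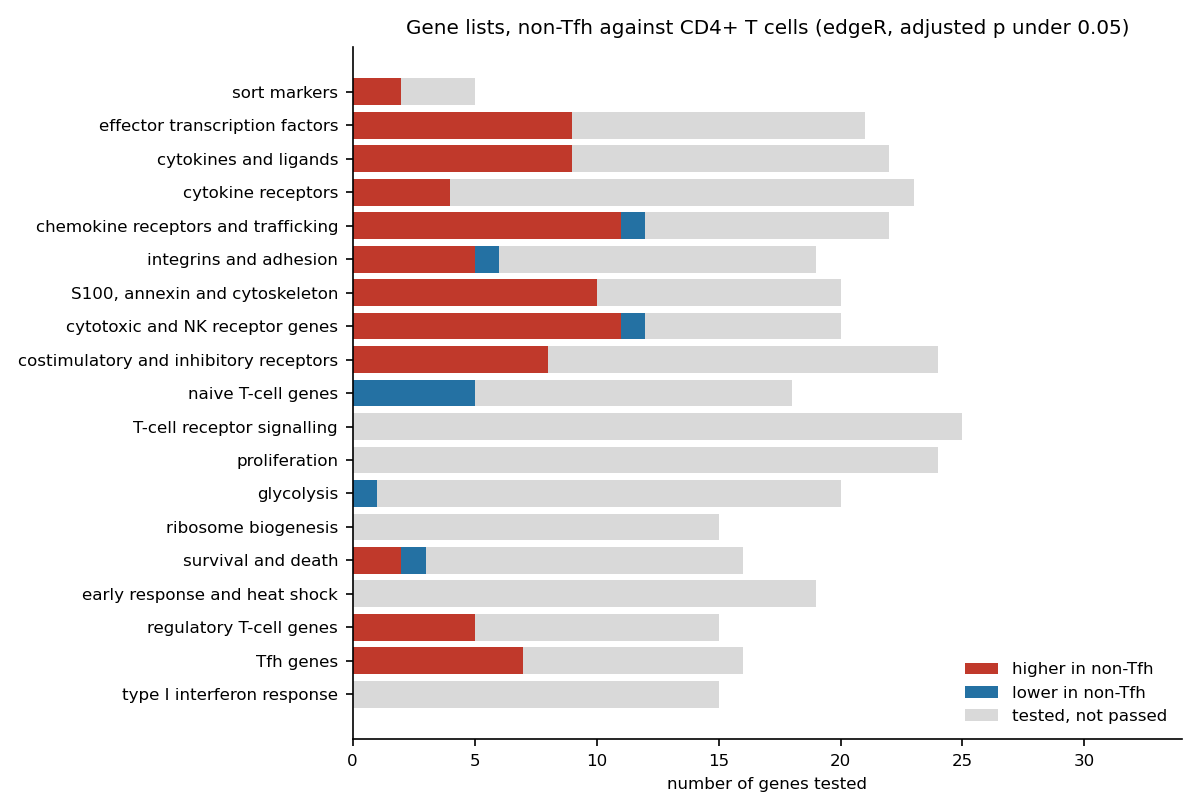
Number of genes tested per list, divided into those higher in non-Tfh (red), lower in non-Tfh (blue) and not past the test (grey). The naive list holds the most falls, 5 of 18, and 5 lists hold no call. Of all genes tested, 3.85% passed.

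Markers of other cells were read beside these results. The summed level of 5 NK-cell markers was 15.8 and 25.3 TPM in the non-Tfh pair, against 0.02 and 0.02 TPM in the CD4+ pair, nearly all of it Klrb1c, and Klra4 was at 0 in all 4. Ncr1, the NK-cell receptor NKp46, stood at 0.06 and 0.49 TPM, against 0.00 and 0.00 TPM in CD4+ cells. Markers of innate-like T cells summed to 21.5 and 32.7 TPM, against 0.18 and 0.42 TPM in CD4+ cells. Klrb1c, at 15.28 and 24.50 TPM, belongs to this list too and makes up most of the sum, so the lists are not separate signals. Among the other members Zbtb16, the gene of PLZF, a factor of NKT cells, had 4.75 and 4.70 TPM, against 0.00 and 0.01 TPM in CD4+ cells (1513 reads against 1, edgeR adjusted p = 0.0665). The label gives no gate that removes NKT or other innate-like T cells, and their part in the NK-receptor and Tbx21 results was not tested.

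B-cell markers summed to 116 and 122 TPM in the non-Tfh pair and 94.5 and 101 TPM in the CD4+ pair, and 1 of 10 passed: Cd22, at 8.69 and 4.92 TPM, against 0.73 and 0.87 TPM in CD4+ cells (2.94 ± 0.32, adjusted p = 0.00971). CD8 T-cell markers summed to 9.98 and 7.64 TPM in the non-Tfh pair and 22.9 and 19.0 TPM in the CD4+ pair, nearly all of it Cd8b1. That sum moved with Prf1, and its part in that result was not tested. Monocyte and macrophage markers summed to 2.20 and 1.45 TPM, against 0.72 and 1.02 TPM in CD4+ cells, and S100a8, S100a9 and Ly6g of the neutrophil list were at 0 in all 4. Markers of stroma and endothelium came almost wholly from Pecam1, which T cells express, at 121 and 117 TPM, against 176 and 167 TPM in CD4+ cells (-0.65 ± 0.12, adjusted p = 0.0452).

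Levels in Tfh cells came from the same fit, and the genes that rose over CD4+ cells were higher, lower or not called against Tfh cells. That contrast shares the non-Tfh libraries with the one above, so the values stand side by side and are not independent. Against Tfh cells, 334 genes (2.56%) were higher and 526 (4.03%) lower in non-Tfh cells. S1pr5, at 11.1 and 8.08 TPM, had 1.15 and 0.31 TPM in Tfh cells (4.05 ± 0.48, adjusted p = 0.0112), and Klrk1, at 12.2 and 23.7 TPM, had 1.97 and 1.15 TPM (3.75 ± 0.53, adjusted p = 0.0168). Mmp9 (2.67 ± 0.37), Ccr2 (1.37 ± 0.26) and Il12rb2 (2.26 ± 0.47) were also higher than in Tfh cells (edgeR adjusted p = 0.0167, 0.0388 and 0.0485). Effector genes such as Tbx21 and Cxcr3 had levels in Tfh cells of 50.2 and 33.6 TPM and of 406 and 233 TPM, beside 57.3 and 42.2 TPM and 234 and 179 TPM in non-Tfh cells.

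Among genes outside the naming rule, singled out after their values were seen, Il17re, a receptor subunit gene for IL17C, had 4.73 and 3.91 TPM in non-Tfh cells, against 0.84 and 0.39 TPM in Tfh and 0.08 and 0.09 TPM in CD4+ cells. Axin2, a target and brake of Wnt signalling, had 91.9 and 80.7 TPM in non-Tfh cells, against 51.1 and 43.8 TPM in Tfh and 35.9 and 31.2 TPM in CD4+ cells (1.02 ± 0.11 over Tfh, adjusted p = 0.0109). Sulf2, a sulfatase gene of heparan sulfate, differed between the libraries of the non-Tfh pair, at 1.55 and 6.50 TPM, against 0.13 and 0.14 TPM in Tfh and 0.03 and 0.01 TPM in CD4+ cells. In the other direction, Cxcr5 (-2.22 ± 0.29), Il21 (-5.77 ± 0.53), Tigit (-4.45 ± 0.30), Lag3 (-4.25 ± 0.48) and Gzmk (-3.40 ± 0.36) were lower in non-Tfh than in Tfh cells (edgeR adjusted p = 0.0145, 0.00769, 0.00487, 0.0112 and 0.0106).

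Of the genes that fell, some were lower still in Tfh cells and some were not. Igfbp4 had 101 and 161 TPM in non-Tfh cells, against 2.31 and 5.68 TPM in Tfh cells (5.21 ± 0.49 over Tfh, adjusted p = 0.00803). Lef1 had 203 and 180 TPM, against 64.4 and 79.5 TPM in Tfh cells (1.48 ± 0.16, adjusted p = 0.011). Ly6c1 had 41.4 and 62.0 TPM, against 2.06 and 2.15 TPM in Tfh cells (4.85 ± 0.36, adjusted p = 0.00487). Sox4 lay the other way, with 6.18 and 2.76 TPM in non-Tfh cells, against 13.48 and 8.06 TPM in Tfh cells, and did not pass (-1.15 ± 0.29 over Tfh, adjusted p = 0.0723). In the contrast with Tfh cells 860 genes were called. That count was 0 without either library of the non-Tfh pair, 3561 without Tfh, 404 without CD4+ or without CD4+ MUT, and 3219 without Tfh MUT and Tfr together.

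The difference can be given within each label, as non-Tfh minus CD4+ and non-Tfh MUT minus CD4+ MUT, on the log2(TPM + 1) scale. The 100 named genes past the test, 79 higher and 21 lower, were chosen on these same libraries and their groups did not overlap, which fixes an equal sign within both labels, so only the sizes are described. Cxcr3 differed by 7.46 in the unmarked and 7.09 in the MUT pair, Ccl5 by 7.96 and 7.29, and Igfbp4 by -3.56 and -3.45. A few genes were unlike between pairs. Ccr10 differed by 3.60 in the unmarked and 1.68 in the MUT pair, Lag3 by 2.88 and 1.36, and Lgals3 by 4.35 and 2.92. Itga1 ran the other way, with 0.88 in the unmarked and 2.48 in the MUT pair. With 1 library per label and population these differences between pairs have no test.

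**Figure D5:**
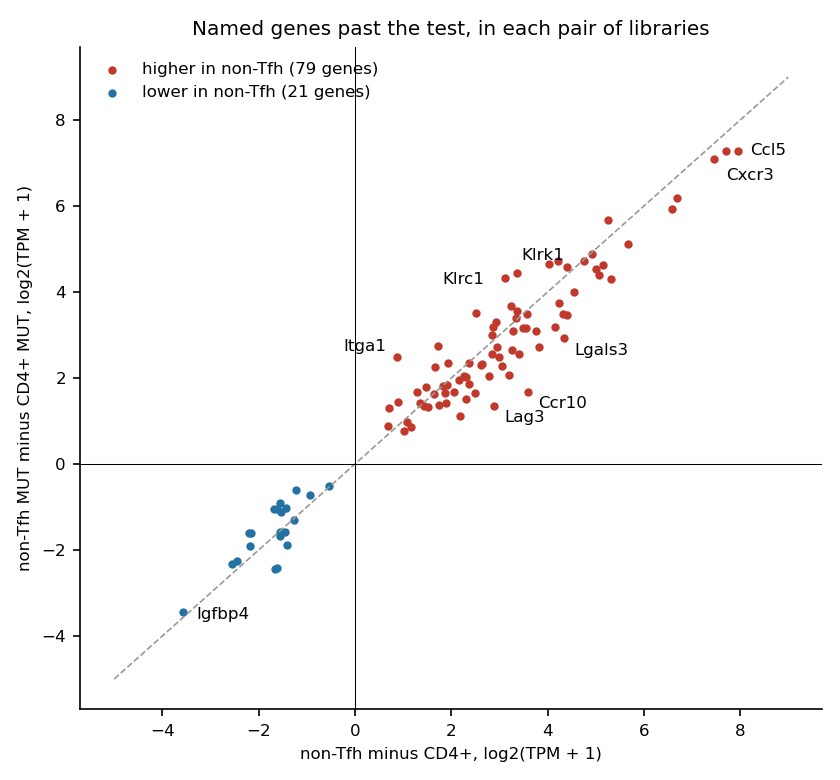
Difference on the log2(TPM + 1) scale of the 100 named genes past the test, non-Tfh minus CD4+ on the x axis and non-Tfh MUT minus CD4+ MUT on the y axis, with 1 point per gene and the line of equal differences dashed. The choice of genes fixes an equal sign on both axes, and the distance from the dashed line shows how far the sizes differ, as for Ccr10 and Itga1.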

How the data were processed

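The libraries were poly(A) RNA sequenced on a HiSeq instrument, per the labels' protocols. The submitters' processing notes name CASAVA 1.8.2, STAR, RSEM and bedtools with mm10; their order, settings and annotation are not given in the sources used here. The authors deposited per gene an expected count (an RSEM estimate, 86.4% whole numbers within 1e-09) and a TPM value. Of 24911 gene entries the 20674 protein-coding ones were used; the 4237 others were 0 throughout. Expected counts were rounded to whole numbers. The 4 compared libraries held 46.77 M to 87.61 M reads. Intervals on read ratios cover counting error only.

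Groups came from the labels. One model with a population term and a MUT term was fitted to the 8 libraries in edgeR 4.0.16 (R 4.3.3, filterByExpr, TMM, quasi-likelihood F-test, Benjamini-Hochberg threshold 0.05). It was tried on simulated data with 100 genes changed 2-fold and 100 changed 4-fold among 12835 tested. There it recovered 30% and 73%, with 4 false calls. Apart from the changed genes, the simulated libraries shared a common mean profile, with no MUT effect, no other population differences and no libraries that stood apart. These rates therefore do not give the error in the real data. The alternatives were RLE scaling, no filter, no MUT term, only the 4 compared libraries, DESeq2 1.42.0, limma 3.58.1 on log2(TPM + 1) or log2(TPM + 0.1), and each library left out.

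Named genes were the members of 19 gene lists and 13 marker lists, plus the 15 genes with the largest change in each direction among called genes with a mean of at least 10 TPM on the higher side and no overlap, leaving out unnamed gene models and receptor segments. Members and lists were chosen with earlier results of these data known. Alternatives for the contrast with Tfh cells were chosen after seeing the data. Promoter sequences are from RefSeq (GRCm38.p6). Tables used pandas 2.3.3 and numpy 2.4.6, intervals scipy 1.17.1 and plots matplotlib 3.10.9.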

Additional observations from a re-analysis of the deposited data

How the results depend on the processing

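The number of genes called between non-Tfh and CD4+ cells, 503 (422 higher, 81 lower), depended on the libraries and the test. It was 3426 (1958 and 1468) with only the 4 compared libraries, 1661 (1073 and 588) with those 4 and no MUT term, 3134 (1856 and 1278) without Tfh MUT and Tfr, and 1204 (873 and 331) with DESeq2, and limma called 50 lower genes on log2(TPM + 1) and 48 on log2(TPM + 0.1). Leaving out 1 library gave 31 to 1203 calls, 31 to 872 higher and 0 to 331 lower. Against Tfh cells the 860 calls were 1500 without the MUT term, 3219 without Tfh MUT and Tfr and 2312 with DESeq2, and 0 to 3561 with 1 library left out. The causes were not tested. On log2(TPM + 0.1) the median of all genes shifted by 0.12. Of the 107 called genes tried here, 16 were called under every alternative, among them Tbx21, Maf, Tnfsf14, Il1rl1, Cxcr3, Cxcr6, Ccr2, Ccr6, S100a6, Ahnak, Myo1f, Nrp1, Ttc39c, Mmp9 and Mmp25. The other 91 lost the call under at least 1 alternative, 21 of them outside the leave-one-out fits, and 0 changed sign. Uncalled genes that changed sign were Il7r, Klf2 and Bcl6. With 1 library left out, Il7r ranged over -0.019 to 0.379 (lowest without non-Tfh MUT), Klf2 over -0.153 to 0.07 (highest without non-Tfh MUT) and Bcl6 over -0.178 to 0.062 (highest without CD4+ MUT). With limma Klf2 was at 0.075 under either pseudocount, and Bcl6 at 0.047 on log2(TPM + 1) and 0.05 on log2(TPM + 0.1). The labels give the libraries no replicate numbers, so no pairing by animal was possible, and libraries were matched only by the MUT label. The MUT label, which 1 library of each population carries, is a term of the fit, and 706 genes were called without it. With 1 library per label and population, a lone library is assumed to vary like the other groups.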
